A study of Homo sapiens with 6 samples.

Results

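The genes described here supply cystine to the cell and make, recycle, use or break down glutathione, and 10 of them were followed by their symbols: SLC7A11, GCLM, GCLC, GSS, GSR, GPX1, GPX4, GSTP1, MGST1 and CHAC1. All 10 were found on the array, among 20046 genes named by a probe with 1 gene symbol. They were represented by 18 probes, of which 14 had a mean log2 intensity above 1.76, the median of all probe means, and so entered a test. On 3 arrays the RNA came from KG1a cells after 24 h with 2 µM of 7l (a code name, with no further identity in the labels), and on 3 arrays from control KG1a cells. KG1a is an established human line of acute myeloid leukaemia with immature, CD34-bearing cells, so both groups come from 1 line, grown in RPMI 1640 with fetal bovine serum. No vehicle or culture time is stated for the control cells.

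Glutathione is a tripeptide of glutamate, cysteine and glycine and the main thiol of the cell. Cysteine usually limits its synthesis. It enters as cystine, through an exchanger of the light chain SLC7A11 and the heavy chain SLC3A2. Glutamate-cysteine ligase, a catalytic subunit (GCLC) with a modifier subunit (GCLM), joins glutamate to cysteine, and glutathione synthetase (GSS) adds glycine. Peroxidases and transferases spend glutathione, glutathione reductase (GSR) restores its oxidised form with NADPH, and CHAC1 cleaves it in the cytosol. Several of these genes are known targets of NRF2, a factor that binds antioxidant response elements, and SLC7A11 and CHAC1 are also known targets of ATF4, a factor of the amino acid response.

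Promoter windows of RefSeq (GRCh38.p14, from 250 bases before to 50 bases after the start of each gene) were matched by gene for 7 of the 10 genes, with 11 windows. There was no match for SLC7A11, GSS and GSR. The 250 bases before the start are shown for GCLM, GSTP1 and CHAC1, whose windows hold a match of a searched motif before the start. Each is written 5′ to 3′ on the strand of the gene, with the motif match in capitals. GCLM lies on the minus strand (chr1:93909431-93909680), GSTP1 on the plus strand (chr11:67583562-67583811) and CHAC1 on the plus strand (chr15:40953221-40953470).
GCLM: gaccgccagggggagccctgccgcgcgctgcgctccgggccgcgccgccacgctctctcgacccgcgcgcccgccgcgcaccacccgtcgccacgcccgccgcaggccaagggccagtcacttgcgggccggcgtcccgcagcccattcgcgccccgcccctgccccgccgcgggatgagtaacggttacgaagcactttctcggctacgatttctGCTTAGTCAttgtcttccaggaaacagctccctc
GSTP1: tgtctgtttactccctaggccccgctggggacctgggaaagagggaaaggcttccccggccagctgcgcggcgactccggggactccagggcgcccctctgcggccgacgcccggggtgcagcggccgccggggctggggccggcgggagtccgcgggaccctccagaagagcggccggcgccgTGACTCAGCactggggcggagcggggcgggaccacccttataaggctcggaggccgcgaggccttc
CHAC1: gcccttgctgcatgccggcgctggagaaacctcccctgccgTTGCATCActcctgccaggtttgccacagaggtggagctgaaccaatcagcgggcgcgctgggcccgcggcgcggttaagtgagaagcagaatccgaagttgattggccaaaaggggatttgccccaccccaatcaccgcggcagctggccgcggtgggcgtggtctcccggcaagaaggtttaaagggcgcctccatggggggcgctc

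The first motif was TGACNNNGC, the core of the antioxidant response element, searched on both strands. It was present in 13.3% of all 35116 windows. In GCLM the match lies 34 to 26 bases before the start and reads TGACTAAGC on the opposite strand. In GSTP1 it lies 66 to 58 bases before the start and reads TGACTCAGC, which also holds the AP-1 motif TGACTCA. Of the 3 windows of MGST1, 1 held a match, after the start (bases 31 to 39). The windows of GCLC, GPX1, GPX4 and CHAC1 held no such letters. The second motif was TTGCATCA, a C/EBP-ATF element to which ATF4 is known to bind, present in 0.866% of all windows and, among these genes, in the window of CHAC1 (209 to 202 bases before the start). A match describes letters in a window and shows no binding.

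Both groups carried the markers of the labelled line: CD34, PTPRC, SPN, MYB and CD7 lay above the level of unexpressed genes on all 6 arrays. This level, a log2 intensity of 2.46 (intensity 5.49), is the 95th percentile of 564 probes for receptors of smell and taste and for hair proteins, genes that blood cells hardly use. CD34 averaged 11.23 (log2 intensity) in 7l-treated cells and 11.46 in control cells. Of 17 markers of B cells, T cells, monocytes, erythroid, epithelial and fibroblast cells, 4 lay above that level on all 6 arrays, and apart from the T cell gene CD3D (10.95 in treated and 11.61 in control cells) none of the 17 exceeded 4.71 on any array. The median intensity was 4.95 on every array, and the share of probes at the floor of 1 was 32.7% to 34.2%. Whether replicates came from separate cultures is not stated, so the spread behind each p-value may be technical.

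The comparison asked which of these transcripts differed between 7l-treated and control cells. Transcripts for cystine import (SLC7A11), the modifier subunit of glutamate-cysteine ligase (GCLM) and glutathione reductase (GSR) rose, by 10.8-fold, 2.50-fold and 2.33-fold at the brightest probe of each. The second probes of GCLM and GSR measured 1.17-fold and 1.42-fold, with overlapping groups, and did not pass. The SLC7A11 fold is set against a dim control level, with 1 of 3 control arrays below the level of unexpressed genes, and its log2 change of 3.44 was 2.09 with an offset of 16 added to every intensity. The catalytic subunit GCLC was 1.56-fold higher and did not pass the test. GSS, GPX1 and GSTP1 measured 0.01, 0.00 and -0.02 on the log2 scale, and CHAC1 sat at the floor of the scale on every array. Of the 9 tested genes 3 were called higher, 0 lower and 6 did not pass (limma, adjusted p under 0.05 over all 12334 genes tested), and at an unadjusted p under 0.05 these numbers were 5 higher and 0 lower. Among all genes tested 1.22% were called higher and 1.16% lower, and at an unadjusted p under 0.05 10.8% were higher and 9.72% lower. With any 1 of the 6 arrays left out, 0 to 1 of the 9 genes were called. The median change of the 9 genes was 0.32 on the log2 scale and that of all genes tested 0.01. Because the genes were chosen with earlier results of these data known, such differences from all genes may follow from the choice. In RNA of whole cultures, more RNA per cell and more cells with a transcript cannot be told apart.

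**Figure D1:**
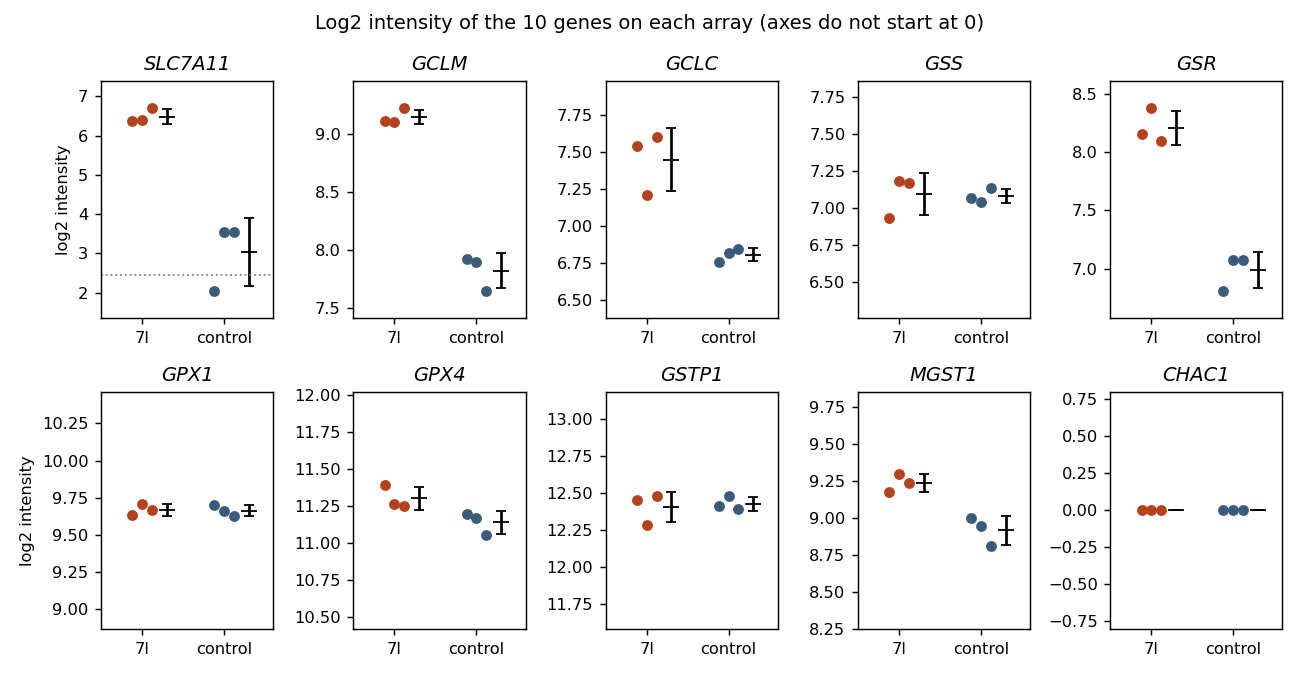
Log2 intensity (vertical axes, 1 panel per gene with its own range) of the brightest probe of each gene on the 3 arrays of 7l-treated cells (left, orange) and the 3 of control cells (right, blue), with mean and SD in black and the level of unexpressed genes (2.46) dotted where it falls in range. The groups stand apart in SLC7A11, GCLM, GCLC, GSR, GPX4 and MGST1 and overlap in GSS, GPX1 and GSTP1, and CHAC1 lies at the floor on all 6 arrays.

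SLC7A11, the cystine-carrying chain of the exchanger, had intensities of 82.5, 84.0 and 104 on the arrays of 7l-treated cells, against 4.14, 11.7 and 11.6 on the control arrays. All treated arrays lay far above all control arrays, and the first control array fell below the level of unexpressed genes. The gene averaged 6.48 ± 0.18 in treated and 3.04 ± 0.86 in control cells (log2 intensity, SD, n = 3 each). It rose by 3.44 ± 0.45 on the log2 scale (SE; limma adjusted p = 0.0359), with a 95% interval of 2.30 to 4.58, and this change ranked 6 from the top of all 12334 genes. The control level is dim, so the size depends on how low values are handled: with an offset of 16 added before log2 the change was 2.09, and with all values raised to the level of unexpressed genes it was 3.30. SLC7A11 has 1 probe on the array. With no intensity filter it did not pass (adjusted p = 0.0693). Without the first control array the change was 2.94 (adjusted p = 0.0341), and with any other single array left out it was 3.33 to 3.69 and did not pass.

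SLC3A2, the heavy chain that carries SLC7A11 and other light chains to the cell surface, served as a related gene. It had intensities of 1109, 1102 and 1138 in 7l-treated cells, against 524, 585 and 483 in control cells. It rose by 1.08 ± 0.09 on the log2 scale (SE; limma adjusted p = 0.0182), a 2.11-fold difference, and did not pass with any 1 array left out (adjusted p = 0.0572 to 0.101). The change of SLC7A11 exceeded that of SLC3A2 by 2.36 ± 0.51 on the log2 scale (SE), and by 1.03 with an offset of 16. In each of the 3 treated arrays the SLC7A11 to SLC3A2 difference lay above that of all control arrays (two-sided exact permutation p = 0.1, the smallest that 3 against 3 allows). Of the 3 windows of SLC3A2 in the promoter table, 1 held the element core, with the same letters as in GSTP1, 37 to 29 bases before the start. Related genes that were not called were not looked up for this motif.

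Glutamate-cysteine ligase makes the first and usually rate-limiting product of the pathway. GCLM, the subunit that raises the activity of the enzyme, had intensities of 555, 551 and 597 in 7l-treated cells, against 243, 238 and 201 in control cells at its brighter probe. The groups stood well apart, with means of 9.15 ± 0.06 in treated and 7.82 ± 0.15 in control cells (log2 intensity, SD, n = 3 each). GCLM rose by 1.32 ± 0.10 (SE; limma adjusted p = 0.0157), with a 95% interval of 1.07 to 1.58. The second GCLM probe, annotated to the same transcript, had 158, 140 and 174 in treated and 132, 127 and 143 in control cells. Its groups overlapped, and its change of 0.23 ± 0.11 did not pass in the test over all 16594 named probes past the filter (adjusted p = 0.349), in which 0.801% were called higher. The size of the GCLM change therefore differs between probes. With both averaged it was 0.78, and the gene was still called (adjusted p = 0.0308). At the brighter probe the change with any 1 array left out was 1.24 to 1.37 and did not pass (adjusted p = 0.0502 to 0.0793).

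GCLC, the subunit that carries the active site, had 186, 148 and 194 in 7l-treated cells, against 108, 113 and 115 in control cells. Every treated array was above every control array, but the second treated array lay closer to the controls than the other two. The change of 0.64 ± 0.12 on the log2 scale (95% interval 0.33 to 0.96) did not pass over all genes (limma adjusted p = 0.0722). It passed where fewer dim genes entered the test (mean log2 intensity over 4, adjusted p = 0.0165), with an offset of 16 (adjusted p = 0.0246) and with a trended and robust prior (adjusted p = 1.76e-05). A second GCLC probe was dim, with 1 of 3 arrays above the level of unexpressed genes in each group, and did not enter the test. This second probe read 1, 5.86 and 1 in treated and 1.56, 3.16 and 7.26 in control cells. With both probes averaged the gene measured -0.11, a sign that comes from these dim readings. Raised to the level of unexpressed genes, the second probe alone measured -0.10. The change of GCLM exceeded that of GCLC by 0.68 ± 0.15 (SE, brighter probes; two-sided exact permutation p = 0.1, the smallest possible here), but the second GCLM probe measured 0.23.

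GSS, which completes glutathione, had 122, 146 and 144 in 7l-treated cells, against 134, 132 and 141 in control cells. The groups overlapped, and the change was 0.01 ± 0.10 on the log2 scale, with a 95% interval of -0.23 to 0.26 (limma adjusted p = 0.961). GSR, which returns oxidised glutathione to its reduced form, had 285, 331 and 273 in treated cells, against 112, 135 and 135 in control cells. It averaged 8.21 ± 0.15 in treated and 6.99 ± 0.15 in control cells (log2 intensity, SD, n = 3 each), with no overlap. GSR rose by 1.22 ± 0.12 (SE; limma adjusted p = 0.0240), with a 95% interval of 0.91 to 1.53. A second, dim GSR probe had overlapping groups, at 21.3, 15.2 and 22.1 in treated and 7.72, 24.0 and 13.6 in control cells, and the mean of the 2 probes gave a change of 0.86, which did not pass (adjusted p = 0.162). With any 1 array left out the GSR change was 1.13 to 1.28 and did not pass (adjusted p = 0.0782 to 0.112). The change of GSR exceeded that of GSS by 1.21 ± 0.13 (two-sided exact permutation p = 0.1, the smallest possible here).

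**Figure D2:**
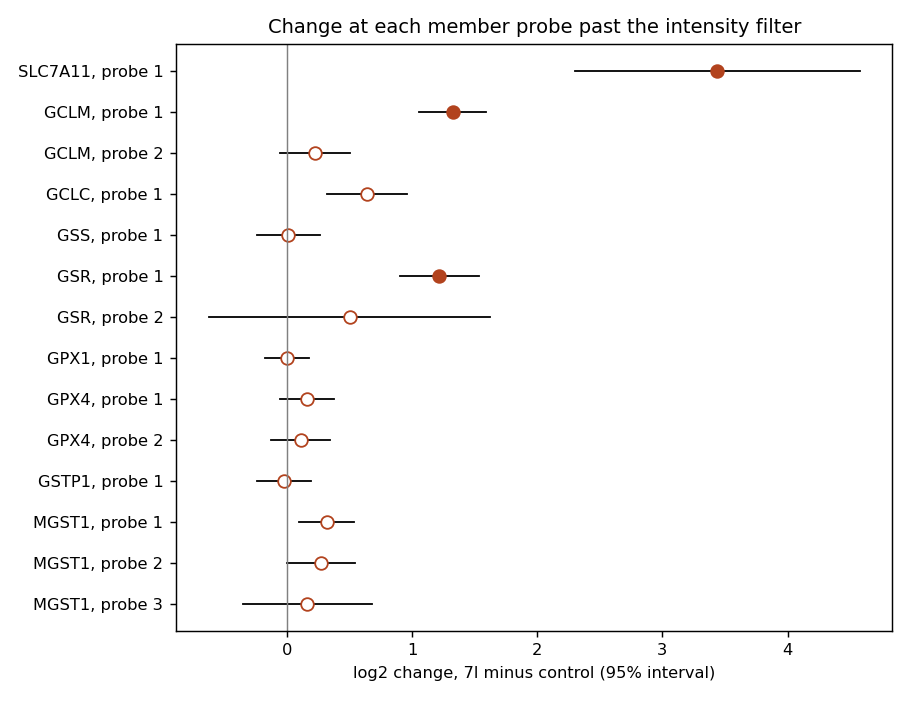
Log2 change, 7l minus control (horizontal axis), with its 95% interval from the test over all named probes, for the 14 member probes past the intensity filter, numbered from the brightest within a gene. Filled points passed at an adjusted p under 0.05: the brightest probes of SLC7A11, GCLM and GSR, whereas the second probes of GCLM (0.23) and GSR (0.50) did not pass.

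GPX1 and GPX4 are selenoproteins that reduce peroxides with glutathione, and neither passed the test. GPX1, the main cytosolic enzyme, had 792, 835 and 812 in 7l-treated cells, against 833, 810 and 788 in control cells. Its groups overlapped, with a change of 0.00 ± 0.07 (95% interval -0.16 to 0.17 on the log2 scale). A second GPX1 probe sat at the floor on all arrays except the second control array, where it read 3.54. GPX4, which reduces lipid peroxides in membranes and restrains ferroptosis, had 2682, 2461 and 2438 in treated cells, against 2351, 2305 and 2126 in control cells. The groups just failed to overlap at this probe and overlapped at the second, and the changes of 0.16 ± 0.08 and 0.11 ± 0.09 did not pass (adjusted p = 0.339 over genes and 0.585 over probes). The change of GPX1 minus that of GPX4 was -0.16 ± 0.07 (two-sided exact permutation p = 0.1, the smallest possible here).

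The transferases join glutathione to electrophiles. GSTP1, the cytosolic pi-class enzyme, had 5597, 4992 and 5696 in 7l-treated cells, against 5434, 5703 and 5359 in control cells. The groups overlapped, and the change was -0.02 ± 0.08 (95% interval -0.23 to 0.19, limma adjusted p = 0.918). GSTP1 and GCLM both hold the element core near their starts in the sequences shown above. GCLM was called higher and GSTP1 was not called, but the difference between the 2 was not tested. Whether the element bears on either reading was not tested, and no window was matched for the called genes SLC7A11 and GSR. MGST1, a membrane-bound enzyme with transferase and peroxidase activity, had 578, 627 and 602 in treated cells, against 512, 491 and 448 in control cells. The groups stood apart, but the change of 0.32 ± 0.08 did not pass (95% interval 0.11 to 0.53, adjusted p = 0.122). The next MGST1 probes by brightness gave 0.28 ± 0.11 and 0.16 ± 0.20 and did not pass, and the dimmest sat at the floor of 1 on all 6 arrays. The change of GSTP1 minus that of MGST1 was -0.34 ± 0.10 (two-sided exact permutation p = 0.1, the smallest possible here). Adjusted over the 5 pairs of genes compared in this way, each p was 0.1.

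CHAC1, the cytosolic enzyme that cleaves glutathione, read 1 on all 3 arrays of 7l-treated cells and 1 on all 3 control arrays. Values at the floor have no order, so no fold is given, and its single probe was not tested. The reading does not show that the transcript was absent, since how well this probe responds was not tested. The groups stood apart upward in 6 of the 9 tested genes, which was so for 15.1% of all genes tested.

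The remaining genes of the pathway were followed in 6 lists of 68 genes, of which 46 were tested. Of these 46, 2 rose, 0 fell and 44 did not pass, with a median change of -0.01 on the log2 scale (10 higher and 4 lower at an unadjusted p under 0.05). Of all genes tested 1.22% were called higher, 1.16% called lower, and 10.8% and 9.72% were higher and lower at an unadjusted p under 0.05. In the list of cystine and cysteine supply SLC3A2 was the 1 called gene of 7, and the median was 0.29. SLC1A5, a carrier of neutral amino acids, measured 0.40 ± 0.09 and CTNS, the lysosomal cystine exporter, 0.29 ± 0.08 (limma adjusted p = 0.0868 and 0.151). Neither passed, although both had groups that stood apart. CTH, which makes cysteine from cystathionine, measured -0.52 ± 0.15 and did not pass (adjusted p = 0.154), with treated arrays all below control arrays, and measured -0.16 with its probes averaged. It was named after its value was seen.

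Among 16 other transferases GSTO1, an omega-class enzyme with thioltransferase activity, was the 1 called gene. It had 2495, 2513 and 2335 in 7l-treated cells, against 1730, 1751 and 1636 in control cells, and rose 1.43-fold (log2 0.52 ± 0.07, limma adjusted p = 0.0380). Its call did not hold when every probe was tested (adjusted p = 0.0507) or with no intensity filter (adjusted p = 0.110), and with any 1 array left out the adjusted p was 0.110 to 0.139. GSTZ1, an enzyme of tyrosine breakdown, measured -0.48 ± 0.10 and GSTCD -0.49 ± 0.18, and neither passed (adjusted p = 0.0886 and 0.218). The transferases had a median of -0.05, with 6 positive and 10 negative changes. Some of these signs rest on dim readings. PTGES and GSTT2, both with positive changes, had control means below the threshold of the intensity filter (log2 1.76). They entered the test through their 7l values. GSTO2, with a negative change, had a 7l mean below this threshold and entered through its control values. The window of GSTO1 held 2 matches of the element core, 226 to 218 and 161 to 153 bases before the start. Of the related genes, only the called ones, SLC3A2 and GSTO1, were looked up for matches. The windows of related genes that were not called were not looked up, so these matches do not set called genes apart.

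No gene was called in the other 4 lists. Of the 6 genes tested for glutathione breakdown and recycling, GGCT, which acts on gamma-glutamyl amino acids, measured -0.23 ± 0.07 and the surface peptidase gene ANPEP 0.23 ± 0.09 (limma adjusted p = 0.158 and 0.246), with a list median of -0.08. That median rests in part on DPEP2, whose means of 1.97 in treated and 2.09 in control cells lay below the level of unexpressed genes. The 4 other peroxidases had a median of -0.22, with GPX7 at -0.25 ± 0.11 and the dim GPX5, whose treated mean lay below the level of unexpressed genes, at -0.066 with values raised to that level (adjusted p = 0.908). GPX3, on which this median also rests, averaged 2.00 in treated and 2.19 in control cells, both below that level. The 8 glutaredoxins and glyoxalases had a median of 0.10, with GLRX3 at 0.22 ± 0.07 and GLO1, which clears methylglyoxal with glutathione, at 0.26 ± 0.10. The 5 transport genes had a median of 0.00, with ABCC5 at 0.41 ± 0.08 (adjusted p = 0.0791), or 0.065 with its probes averaged (adjusted p = 0.639). The treated mean of ABCC3 also lay below the level of unexpressed genes, and with values raised to that level it measured -0.41 (adjusted p = 0.460).

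**Figure D3:**
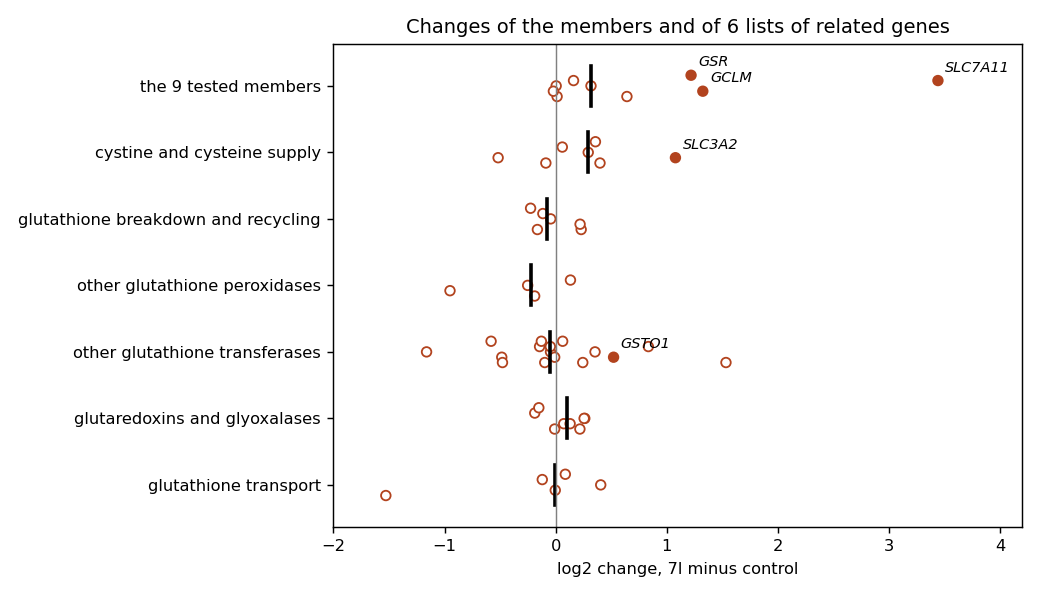
Log2 change, 7l minus control (horizontal axis), of each tested gene, with 1 row for the 9 tested members and 1 for each list of related genes, filled points for called genes and a black bar at the median. Called genes appear in 3 rows (SLC7A11, GCLM and GSR among the members, SLC3A2 and GSTO1 in the lists), and the other lists lie around 0, with medians from -0.22 to 0.10.

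By the root mean square difference of log2 values centred on the mean of each gene over the 6 arrays, the genes nearest to SLC7A11 were PRSS35 (0.26), NMRAL2P (0.37) and EID3 (0.46). All 3 were dim in control cells, with mean log2 intensities of 0.62 to 2.57, and of the 3 only PRSS35 was called (limma adjusted p = 0.0230). The intensity filter used the mean over all 6 arrays. The control means of PRSS35 (0.62) and EID3 (1.48) lay below its threshold. Both therefore entered the test through their 7l values (means of 3.70 and 4.32). With no intensity filter PRSS35 passed (adjusted p = 0.0373) and EID3 did not (adjusted p = 0.191). Dim control values give only a bound. With values raised to the level of unexpressed genes, the log2 changes were 1.25 for PRSS35, 2.60 for the pseudogene NMRAL2P and 1.86 for EID3. NMRAL2P and EID3 did not pass as reported (adjusted p = 0.0515 and 0.105) and passed with raised values (adjusted p = 0.0137 and 0.0134). Ranked on such raised values, a choice made after seeing the data, the nearest genes to SLC7A11 were instead NMRAL2P (0.45), CXCL8 (0.50) and NQO1 (0.55), with EID3 at rank 15 and PRSS35 at rank 48. The neighbours of SLC7A11 thus depend on how dim values are handled. The 3 of GCLM were the same either way, but they and GCLM lie above that level and were left unchanged by the raising. Their sameness is therefore no sign of a firmer result. The genes nearest to GCLM were SLC44A3 (0.11), CLIC3 (0.12) and TMEM114 (0.12), each called higher by 1.29 to 1.35 on the log2 scale (adjusted p = 0.0182, 0.0152 and 0.00773). Because they were picked for likeness to GCLM on these same arrays, a change close to that of GCLM followed from the choice. Their calls therefore add no support. Averaged over its probes, TMEM114 was no longer called (adjusted p = 0.699). Leaving out each array in turn kept the call of TMEM114 in 4 of 6 cases, of SLC44A3 in 1 and of CLIC3 and PRSS35 in 0. Likeness here describes 6 arrays in 2 groups and carries no test.

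**Figure D4:**
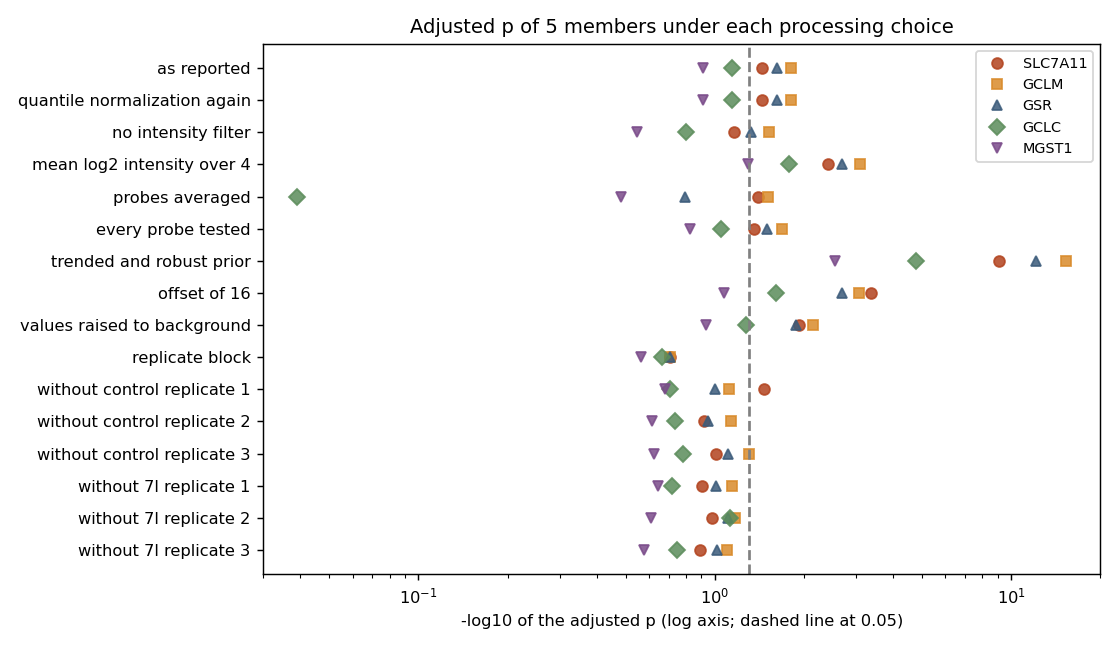
Adjusted p of 5 genes (horizontal axis, as -log10 on a log axis) under the reported processing and each alternative (rows), with the threshold of 0.05 dashed. SLC7A11, GCLM and GSR lie to the right of it as reported and to the left of it with the replicate block, and leaving out any 1 array moves them to the left, except SLC7A11 without control replicate 1. SLC7A11 also lies to the left with no intensity filter (adjusted p = 0.0693), and GSR with its probes averaged (adjusted p = 0.162).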

How the data were processed

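The values deposited by the authors are linear probe intensity. How background was corrected and which normalization and software were used is not given in the labels. When each array was sorted, 97.8% of ranks held equal values on all 6 arrays (relative tolerance 0.0001), a sign of quantile normalization, so a global shift cannot be seen. Groups and replicate numbers came from the sample titles. The sample descriptions instead give a single replicate number per group, so the replicate block rests on the titles alone. Probes were named by a platform table, in which 30113 of 47322 probes carry 1 symbol, 8 several and 17201 are unnamed.

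Values were floored at 1 and log2 transformed. Deposited readings such as those of CHAC1 were already exactly 1, so for these the floor was present before that step. The brightest probe by mean represented each gene, and 12334 genes with a mean above the median of all probe means (log2 1.76) were tested with limma 3.58.1 in R 4.3.3 (lmFit and eBayes, default prior, two-sided, Benjamini-Hochberg), 7l minus control, with 4 residual and 1.24 prior degrees of freedom. The level of unexpressed genes is the 95th percentile of 564 olfactory receptor, taste receptor and keratin-associated protein probes. The same test was run on every named probe past the filter. The test was also run on simulated data with independent normal noise and planted changes. That simulation had no floor and no shared array effects, so it does not cover dim values or technical replicates. Figures used Python 3.11.15 and matplotlib 3.10.9.

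The members and lists were chosen with earlier results of these data known. The text names all members, up to 4 called genes and the 2 with the smallest p among those not called in each related list, and the 3 genes nearest in pattern to SLC7A11 and to GCLM. Alternatives were other filters, probe rules, priors, offsets and floors, repeated quantile normalization, the replicate number as a block and each array left out. Deviations of same-numbered arrays of the groups had correlations of -0.02, 0.00 and 0.00 over the genes tested. Dim genes vary most and weigh most in these values, so a batch shared by the brighter genes was not tested.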

Additional observations from a re-analysis of the deposited data

How the results depend on the processing

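SLC7A11, GCLM, GSR, GPX4 and MGST1 kept their direction under all 15 alternatives. Leaving out 1 array ended the calls of GCLM and GSR in all 6 cases and of SLC7A11 in 5 of 6 (all but control replicate 1). Leaving out 1 array at a time left 0 to 1 members called higher, 6 to 15 genes called higher and 0 to 18 called lower, against 5 members at an unadjusted p under 0.05 each time. The adjusted p without 1 array was 0.0341 to 0.128 for SLC7A11, 0.0502 to 0.0793 for GCLM and 0.0782 to 0.112 for GSR. With the replicate block limma called 0 members higher, 0 genes higher and 0 lower (1104 and 1003 at an unadjusted p under 0.05, with 5 members among the first). This fit has fewer residual degrees of freedom. Over all genes tested, where dim genes vary most, same-numbered arrays showed no pairing. Pairing among the brighter genes alone was not tested. A trended and robust prior gave 5 members called higher, adding GCLC and MGST1, and 889 genes higher and 813 lower. The counts of genes called higher and lower were 65 and 38 with no intensity filter, 571 and 488 with a mean log2 intensity over 4, 385 and 339 with an offset of 16, and 226 and 220 with values raised to the level of unexpressed genes. In these 4 settings 2, 4, 4 and 3 members were called, and with no intensity filter the lost call was that of SLC7A11 (adjusted p = 0.0693). With probes averaged 2 members were called, without GSR (adjusted p = 0.162), and the sign turned for GCLC (-0.11), GPX1 (-0.30) and the related gene GSTCD (0.23). That GPX1 value comes from its second probe, at the floor of 1 on all arrays except the second control array. The brighter GPX1 probe measured 0.00. The GCLC value likewise comes from its dim second probe, which read 1, 5.86 and 1 in 7l-treated cells. Signs near 0 turned on leaving out single arrays: GSS measured -0.032 to 0.095 (negative without control replicate 2, 7l replicate 2 or 7l replicate 3), GPX1 -0.016 to 0.024 (negative without control replicate 3 or 7l replicate 2) and GSTP1 -0.056 to 0.039 (positive without control replicate 2 or 7l replicate 2). The 5 differences between changes of 2 genes kept their sign in every alternative run for them. Dim signal limits the SLC7A11 control level, the second GCLC, GSR and GPX1 probes and CHAC1.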
